A study of Homo sapiens with 12 samples.

Results

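The NRF2 antioxidant genes described here are NFE2L2, KEAP1, NQO1, HMOX1, GCLM, GCLC, TXNRD1, SRXN1 and TXN, taken by symbol from a table of RNA-seq counts without use of their measured values. They are 9 of the 56269 genes in the table, and all 9 were among the 16069 genes that passed a filter on low counts. The libraries come from HEYA8, an established ovarian cancer cell line, and the study asked how the glycosaminoglycan chains of betaglycan, the TGF-β co-receptor encoded by TGFBR3, alter its shedding and TGF-β signaling. There were 12 libraries in 4 groups of 3. The control vector cells carried a control vector, whose backbone the paper does not give. The ∆GAG-BG cells expressed betaglycan with both attachment serines changed to alanine. The S534A cells (CS-BG) and the S545A cells (HS-BG) each expressed betaglycan with 1 of these serines changed. The betaglycan constructs were put into the lentiviral vector pHIV-dTomato, and infected cells were sorted for its red fluorescent protein. All groups were sequenced at steady state in regular growth medium, and no added ligand is described. The number of sorted populations per construct is not given, and nothing in the labels ties the replicates to separate infections. The p-values therefore measure the spread between these libraries only.

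NRF2, the product of NFE2L2, is a transcription factor that is held low in resting cells by KEAP1, which hands it to a ubiquitin ligase for degradation. Oxidants and electrophiles modify KEAP1, NRF2 then accumulates, pairs with small MAF proteins and binds antioxidant response elements in the promoters of genes for glutathione synthesis, thioredoxin reduction, quinone reduction and heme breakdown. The mRNAs of these target genes are a common readout of the pathway, which is often active in carcinoma cells, while NRF2 itself is controlled mostly at the level of the protein, which RNA-seq does not measure.

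None of the 9 genes differed between any pair of groups at an adjusted p under 0.05. The levels of the group means lay close together for most members, and GCLC, which had the narrowest range of the 9, differed by at most 1.10-fold between groups in its means. The widest departures belonged to 1 library, S534A replicate 2, in which NQO1 was 2.21-fold higher and TXNRD1 was at 0.467 times the mean of the other 11 libraries.

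Total counts were between 16410001 and 29504297 per library. Levels are given as counts per 1000000 (CPM), scaled between libraries by the trimmed mean of M-values (TMM). TGFBR3, the expressed construct, went against the labels in 4 libraries. It was 20.3 and 21.4 CPM in the libraries labelled ∆GAG-BG replicates 2 and 3 against 260 CPM in replicate 1, and 259 CPM in the libraries labelled control vector replicates 2 and 3 against 15.9 CPM in replicate 1. In S534A and S545A it was between 413 and 574 CPM. Every direction below that involves ∆GAG-BG or control vector therefore rests on libraries named by their labels. Replicates 2 and 3 of control vector, ∆GAG-BG and S545A were much closer to each other (chi-square per degree of freedom 1.40 to 1.99) than the other pairs of libraries of 1 group (17.4 to 78.6). They differed by more than sampling noise and were counted separately, but whether they are separate cultures is not given. SDs and p-values that count them as independent may therefore understate the spread. Some pairs from different groups were closer than 17.4, such as S534A replicate 1 with S545A replicate 1 (3.96). Control vector replicate 2 stood at 4.18 with S534A replicate 3 and 4.19 with S545A replicate 2. Others were farther apart, up to 124 for ∆GAG-BG replicate 1 with S534A replicate 2. Libraries of 1 labelled group were thus not always closer to each other than to libraries of other groups. The title of the third S545A library reads S545S. Of 9 markers of ovarian carcinoma and epithelium, 6 had a median of at least 1 CPM, with PAX8 and keratins KRT7, KRT8 and KRT18 high, while MUC16 and CDH1 had no count in any library. The summed level of 5 leukocyte markers was 0 to 0.227 CPM, that of 6 fibroblast markers 8.84 to 21.5 CPM with DCN and LUM at 0, and that of 3 endothelial markers, mostly CDH5, 171 to 445 CPM.

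The promoter windows are shown for the members in which a script found the core of the antioxidant response element, and for NQO1, which among the 9 members had the highest excess in a single library. The motif searched was TGACNNNGC on both strands, in the 250 bases before each RefSeq transcript start of GRCh38.p14. RefSeq windows were matched for 8 of the 9 members, HMOX1 being the one with none. Capitals mark the motif, which reads GCNNNGTCA where it lies on the opposite strand.
GCLM, chr1:93909431-93909680, minus strand: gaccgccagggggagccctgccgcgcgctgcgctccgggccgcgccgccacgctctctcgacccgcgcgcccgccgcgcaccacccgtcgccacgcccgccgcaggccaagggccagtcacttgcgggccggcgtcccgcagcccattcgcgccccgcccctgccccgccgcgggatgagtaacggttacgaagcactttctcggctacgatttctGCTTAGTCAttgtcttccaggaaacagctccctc
KEAP1, chr19:10502772-10503021, minus strand: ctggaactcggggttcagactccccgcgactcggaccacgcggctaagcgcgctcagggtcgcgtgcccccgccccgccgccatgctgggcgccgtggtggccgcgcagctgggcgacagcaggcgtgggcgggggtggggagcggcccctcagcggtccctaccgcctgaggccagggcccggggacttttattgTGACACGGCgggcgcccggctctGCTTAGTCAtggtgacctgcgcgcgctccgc
TXNRD1 (first start), chr12:104215529-104215778, plus strand: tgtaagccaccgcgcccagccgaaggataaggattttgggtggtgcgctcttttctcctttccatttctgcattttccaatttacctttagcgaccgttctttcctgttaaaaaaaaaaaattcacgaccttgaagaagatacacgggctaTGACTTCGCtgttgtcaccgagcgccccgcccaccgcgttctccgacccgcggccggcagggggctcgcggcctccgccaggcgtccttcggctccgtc
TXNRD1 (second start), chr12:104286782-104287031, plus strand: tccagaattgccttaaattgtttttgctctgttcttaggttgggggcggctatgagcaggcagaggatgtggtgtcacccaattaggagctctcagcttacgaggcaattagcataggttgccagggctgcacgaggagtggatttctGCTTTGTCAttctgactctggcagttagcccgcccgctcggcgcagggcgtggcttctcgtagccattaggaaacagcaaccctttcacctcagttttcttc
NQO1, chr16:69726561-69726810, minus strand: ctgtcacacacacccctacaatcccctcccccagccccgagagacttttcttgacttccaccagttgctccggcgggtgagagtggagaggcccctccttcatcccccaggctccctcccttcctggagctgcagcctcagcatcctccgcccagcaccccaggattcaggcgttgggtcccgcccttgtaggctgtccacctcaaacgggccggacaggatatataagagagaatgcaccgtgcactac
The GCLM window held TGACTAAGC on the opposite strand at -34 to -26 from the start. The KEAP1 window held TGACACGGC at -54 to -46 and TGACTAAGC on the opposite strand at -31 to -23. The TXNRD1 windows held TGACTTCGC at -99 to -91 and TGACAAAGC on the opposite strand at -102 to -94. The NQO1 window held no match, which says only that these letters are not in this window. In all, 4 of the 11 windows of members, from 3 genes, held the motif, and 3830 of 35116 windows of all genes did (10.91%). A match is a description of letters and not a bound site.

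Across the 12 libraries the levels per kilobase of exon spanned from TXN to SRXN1. The median was 250 RPKM (TMM-scaled CPM per kilobase of exon) for TXN, 153 RPKM for TXNRD1 and 72.3 RPKM for NQO1. It was 20.4 RPKM for NFE2L2, 17.4 RPKM for KEAP1 and 5.50 RPKM for HMOX1. GCLC stood at 4.39 RPKM, GCLM at 3.19 RPKM and SRXN1 at 0.907 RPKM. Within each library this order held in all 12 for every pair of neighbours but 2. TXNRD1 was above NQO1 in 11 of 12 libraries, the exception being S534A replicate 2, and NFE2L2 was above KEAP1 in 10 of 12, the exceptions being ∆GAG-BG replicate 3 and S534A replicate 2. The ranges over libraries overlapped for these 2 pairs and also for HMOX1 with GCLC and GCLC with GCLM, though not within any library. SRXN1 shares 2292 of its 2698 exon bases with another gene of the table on the same strand, and the setting for reads that fall in both is not given in the sources used here, so its level per length is uncertain. NFE2L2 shares 1054 of 5979 exon bases with AC074286.1 in the same way.

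NFE2L2 (chr2:177227595-177392697, minus strand, coordinates of the count table on GRCh38) encodes NRF2. Its level was 115, 123 and 131 CPM in control vector replicates 1, 2 and 3, 151, 121 and 116 CPM in ∆GAG-BG, 117, 105 and 125 CPM in S534A, and 118, 132 and 135 CPM in S545A. The highest value was that of ∆GAG-BG replicate 1 and the lowest that of S534A replicate 2, and all 4 groups overlapped. KEAP1 (chr19:10486120-10503741, minus strand), the inhibitor of NRF2, was 63.4, 61.8 and 65.9 CPM in control vector, 54.3, 69.5 and 72.8 CPM in ∆GAG-BG, 64.1, 83.8 and 67.6 CPM in S534A, and 65.2, 64.5 and 65.5 CPM in S545A. The same 2 libraries held the extremes in the opposite order, KEAP1 being lowest in ∆GAG-BG replicate 1 and highest in S534A replicate 2.

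NQO1 (chr16:69706996-69726951, minus strand) encodes the quinone reductase most used as an indicator of NRF2 activity. It was 277, 231 and 237 CPM in control vector, 224, 234 and 236 CPM in ∆GAG-BG, 243, 519 and 223 CPM in S534A, and 247, 218 and 221 CPM in S545A. Apart from S534A replicate 2, all 11 values lay between 218 and 277 CPM and the groups overlapped. HMOX1 (chr22:35380361-35394214, plus strand), which encodes heme oxygenase, was 14.4, 13.4 and 12.6 CPM in control vector, 13.2, 12.2 and 12.6 CPM in ∆GAG-BG, 15.7, 18.4 and 13.2 CPM in S534A, and 15.2, 11.1 and 11.2 CPM in S545A. Its 2 highest values were both in S534A and its 2 lowest both in S545A, but S545A replicate 1 lay inside the S534A range.

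GCLC (chr6:53497341-53616970, minus strand) encodes the catalytic subunit of glutamate-cysteine ligase, the first enzyme of glutathione synthesis. It was 39.1, 37.6 and 40.9 CPM in control vector, 35.6, 34.7 and 37.2 CPM in ∆GAG-BG, 37.8, 38.3 and 37.1 CPM in S534A, and 35.2, 35.4 and 36.2 CPM in S545A. All control vector libraries were above all ∆GAG-BG and all S545A libraries, by small margins. GCLM (chr1:93885205-93909456, minus strand) encodes the modifier subunit of the same enzyme and was 19.5, 16.7 and 15.4 CPM in control vector, 12.5, 19.1 and 17.9 CPM in ∆GAG-BG, 20.7, 23.5 and 16.3 CPM in S534A, and 19.3, 12.9 and 14.7 CPM in S545A. GCLM varied more than GCLC within every group. The range of log2 CPM over the 12 libraries was 0.91 for GCLM and 0.24 for GCLC, and 95.9% of all genes tested had a range at least as wide as that of GCLC.

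TXN (chr9:110243811-110256640, minus strand) encodes thioredoxin, a small protein that reduces disulfides. It was 367, 270 and 277 CPM in control vector, 266, 306 and 294 CPM in ∆GAG-BG, 352, 394 and 269 CPM in S534A, and 351, 239 and 252 CPM in S545A. Replicate 1 was the highest of its group in control vector and S545A and the lowest in ∆GAG-BG. TXNRD1 (chr12:104215779-104350305, plus strand), which encodes the cytosolic reductase that recharges thioredoxin, was 1050, 1065 and 1097 CPM in control vector, 902, 1089 and 1111 CPM in ∆GAG-BG, 1000, 484 and 1149 CPM in S534A, and 952, 1005 and 1004 CPM in S545A. Without S534A replicate 2 its range over the libraries was 0.35 on the log2 scale, against 1.25 with it. SRXN1 (chr20:646615-653370, minus strand), which encodes the enzyme that repairs overoxidized peroxiredoxins, had between 32 and 77 counts per library. It was 2.66, 1.79 and 1.61 CPM in control vector, 2.72, 2.18 and 2.39 CPM in ∆GAG-BG, 2.70, 2.50 and 2.61 CPM in S534A, and 2.98, 1.57 and 1.64 CPM in S545A. The Poisson 95% interval, which covers counting error only, was 2.36 to 3.73 CPM for S545A replicate 1 and 1.07 to 2.21 CPM for replicate 2, so that these 2 libraries of 1 group differed beyond counting error.

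**Figure D1:**
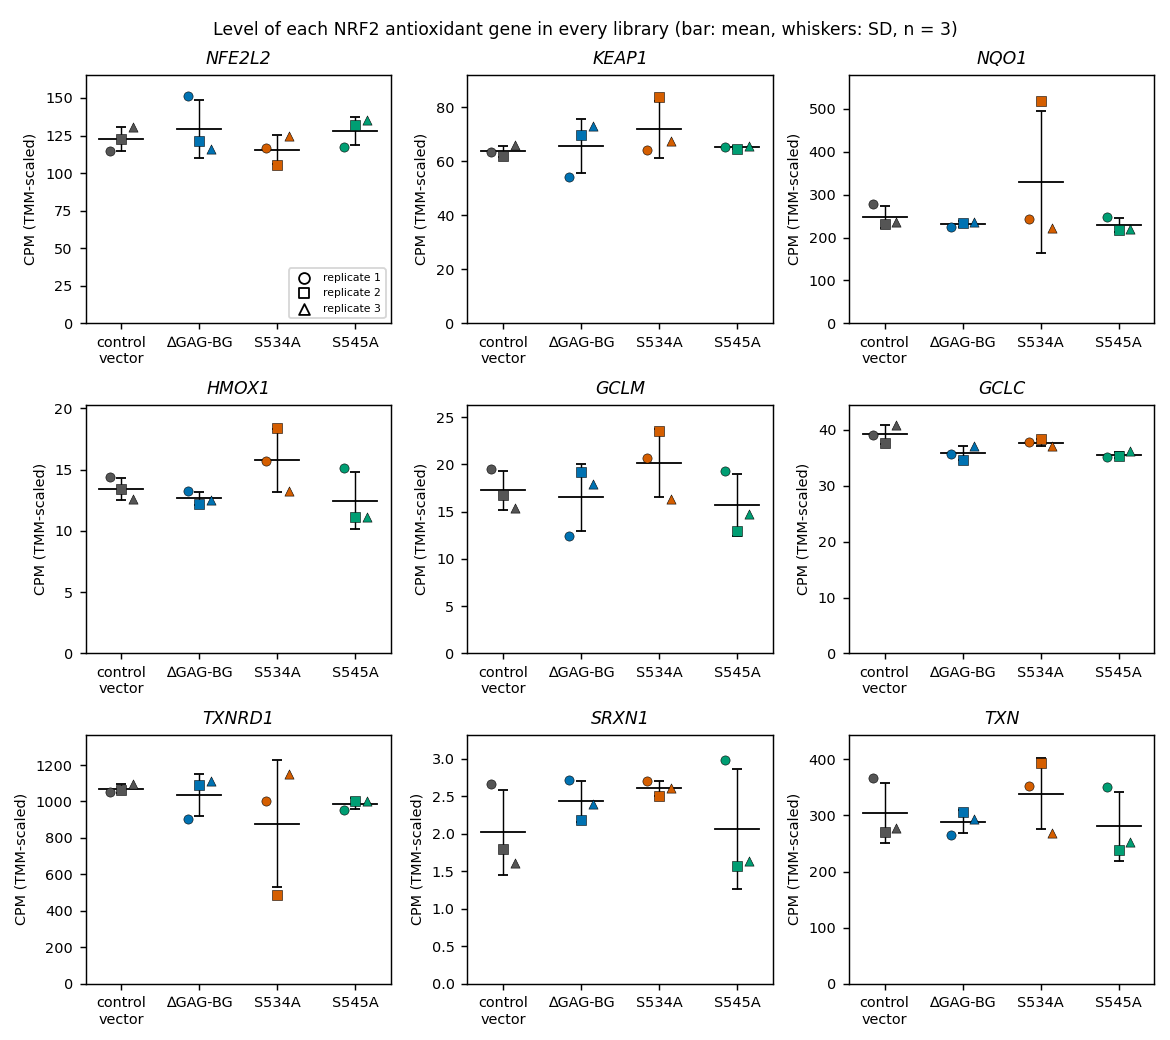
TMM-scaled CPM (vertical axes, from 0) of the 9 genes in each library of the 4 groups, with symbols for replicates 1, 2 and 3, a bar at the group mean and whiskers of 1 SD (n = 3). S534A replicate 2 stands above all other libraries for NQO1 (519 CPM) and below them for TXNRD1 (484 CPM), while the groups overlap for most genes.

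Because the groups share 1 model, each pair of groups was compared by edgeR's quasi-likelihood test with Benjamini-Hochberg adjustment over all 16069 genes. At an adjusted p under 0.05, 0 of the 9 members passed in each of the 6 comparisons, where 0% of all genes passed too, and DESeq2, limma-voom and limma-trend also called 0 members. At an unadjusted p under 0.05, 0 of 9 members passed between S534A and ∆GAG-BG (2.99% of all genes), 0 between S545A and ∆GAG-BG (1.1%) and 1 between S545A and S534A (4.78%). Against control vector it was 0 of 9 for ∆GAG-BG (0.871%), 0 for S534A (3.45%) and 0 for S545A (1.05%). In a test of any difference among the 4 groups 0 of 9 passed at an unadjusted p under 0.05 (1.55%) and 0 at an adjusted p under 0.05 (0.00622%). Of the 54 intervals of the 9 members in 6 comparisons, 52 lay inside a 2-fold change either way, and the other 2 were those of NQO1 in the comparisons of S534A with ∆GAG-BG and with S545A. A change smaller than these intervals was not detectable with 3 libraries a group. Larger changes could also be missed after adjustment over 16069 genes. HMOX1 between S545A and S534A had an interval without 0 and still did not pass edgeR's adjusted test. In a bulk culture, fewer cells with a transcript and less of it per cell cannot be told apart.

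The comparison of S534A with ∆GAG-BG asks what the remaining chain adds to betaglycan without chains. NQO1 was 329 ± 165 CPM in S534A and 231 ± 6.72 CPM in ∆GAG-BG (SD, n = 3 each), a log2 fold change of 0.51 (SE 0.25, 95% interval -0.04 to 1.06, adjusted p = 0.890). HMOX1 was 15.8 ± 2.58 CPM in S534A and 12.7 ± 0.522 CPM in ∆GAG-BG (SD, n = 3 each), with a log2 fold change of 0.32 (SE 0.15, adjusted p = 0.890). Neither passed the test, and for both genes the ranges of the groups overlapped. The log2 fold change was 0.29 for GCLM, 0.23 for TXN, 0.13 for KEAP1, 0.10 for SRXN1 and 0.08 for GCLC, and it was -0.16 for NFE2L2 and -0.24 for TXNRD1. The median over the 9 members was 0.13, beside 0.00 over all genes tested. Without S534A replicate 2 the log2 fold change of TXNRD1 turned from -0.24 to 0.06, and that of NQO1 went from 0.51 to 0.01. Without the 4 libraries whose TGFBR3 went against their labels, ∆GAG-BG is replicate 1 alone, taken to vary like the other groups, and 3 of 9 members had an unadjusted p under 0.05 (11.6% of all genes), with log2 fold changes of -0.39 for NFE2L2, 0.40 for KEAP1 and 0.70 for GCLM and 0 of 9 under an adjusted p of 0.05.

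Between S545A and ∆GAG-BG the 9 log2 fold changes lay from -0.23, for SRXN1, to -0.01, with a median of -0.02 beside -0.01 over all genes tested. The interval for SRXN1 ran from -0.82 to 0.35, and its adjusted p was 1.00 in edgeR's test. Without S545A replicate 1 its log2 fold change was -0.59, and SRXN1 was then the 1 of 9 members under an unadjusted p of 0.05 (1.92% of all genes). The common negative sign of the 9 did not hold without the 4 libraries whose TGFBR3 went against their labels, where the log2 fold change was 0.33 for GCLM, 0.26 for KEAP1, 0.13 for TXNRD1 and 0.08 for TXN, the median was 0.03, and 0 of 9 members were under an unadjusted p of 0.05 (5.48%).

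S545A and S534A differ in which serine is left, and neither group holds a library whose TGFBR3 went against its label. Both express a construct and had TGFBR3 between 413 and 574 CPM, so its level is no check on an exchange of libraries between them. The spread used in the test still came from all 4 groups, including those libraries. HMOX1 was 12.5 ± 2.31 CPM in S545A and 15.8 ± 2.58 CPM in S534A (SD, n = 3 each). Its log2 fold change was -0.34 (SE 0.15, 95% interval -0.66 to -0.02). Before adjustment edgeR's p was 0.0402, after it 0.702, and the comparison had a two-sided exact permutation p of 0.2, where 3 against 3 libraries cannot go below 0.1. HMOX1 was thus the 1 member of 9 below the unadjusted threshold and did not pass after adjustment. Without S534A replicate 2 its log2 fold change was -0.21 and no member was below the unadjusted threshold (1.74% of all genes). No member was below it with only the 2 groups compared (3.86%). The same held with replicates 2 and 3 summed in control vector, ∆GAG-BG and S545A (1.05%). The log2 fold change was -0.52 for NQO1, -0.37 for GCLM, -0.33 for SRXN1 and -0.27 for TXN. It was -0.14 for KEAP1 and -0.09 for GCLC, and 0.15 for NFE2L2 and 0.17 for TXNRD1. The median over the 9 members was -0.27, beside 0.00 over all genes tested, and it was -0.12 without S534A replicate 2, where TXNRD1 turned to -0.12 and NQO1 went to -0.03. GCLC was the 1 of 9 members whose groups did not overlap, lower in every S545A library (4.8% of all genes did the same), with an adjusted p of 0.727 in edgeR's test.

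The comparisons with control vector ask what any betaglycan construct changes. GCLC was 39.2 ± 1.64 CPM in control vector, 35.8 ± 1.27 CPM in ∆GAG-BG and 35.6 ± 0.540 CPM in S545A (SD, n = 3 each). Its log2 fold change was -0.13 for ∆GAG-BG and -0.14 for S545A, with intervals of -0.29 to 0.03 and -0.30 to 0.02. Its groups did not overlap in either comparison, where it was the 1 of 9 members lower in every ∆GAG-BG library (2.13% of all genes) and 1 of the 2 lower in every S545A library, the other being TXNRD1 (4.09%). It passed the test in neither, with an adjusted p of 1.00 in edgeR for both. Both comparisons share the control vector libraries. TXNRD1 was 1071 ± 24.2 CPM in control vector and 987 ± 30.2 CPM in S545A (SD, n = 3 each), a log2 fold change of -0.12 with an interval of -0.63 to 0.39. SRXN1 had a log2 fold change of 0.26 in ∆GAG-BG against control vector, with an interval of -0.32 to 0.84, and of 0.03 without the 4 libraries whose TGFBR3 went against their labels. S534A against control vector gave log2 fold changes of 0.40 for NQO1, 0.23 for HMOX1 and -0.29 for TXNRD1. Without S534A replicate 2 it was -0.09 for NQO1 and 0.00 for TXNRD1. The median over the 9 members was -0.06 for ∆GAG-BG, 0.17 for S534A and -0.12 for S545A, beside 0.00, 0.01 and 0.00 over all genes tested. The S534A median was 0.03 without S534A replicate 2. Without the 4 libraries whose TGFBR3 went against their labels, the medians were -0.22 for ∆GAG-BG, 0.01 for S534A and -0.20 for S545A, and 0 of 9 members had an unadjusted p under 0.05 in any of the 3 (9.45%, 1.99% and 3.44% of all genes). In that fit ∆GAG-BG against control vector compares 1 library with 1, and GCLM was at -0.65, TXN at -0.47 and NFE2L2 at 0.40. Taken by replicate number, S545A was below control vector in all 3 pairs for 5 of 9 members (NQO1, GCLM, GCLC, TXNRD1 and TXN, against 20.5% of all genes) and above it in all 3 for NFE2L2 (18.8%). In the fit with the replicate number as a block, 0 of 9 were under an unadjusted p of 0.05. Replicates 2 and 3 were close to each other in both groups, so these pairs are not 3 independent ones.

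**Figure D2:**
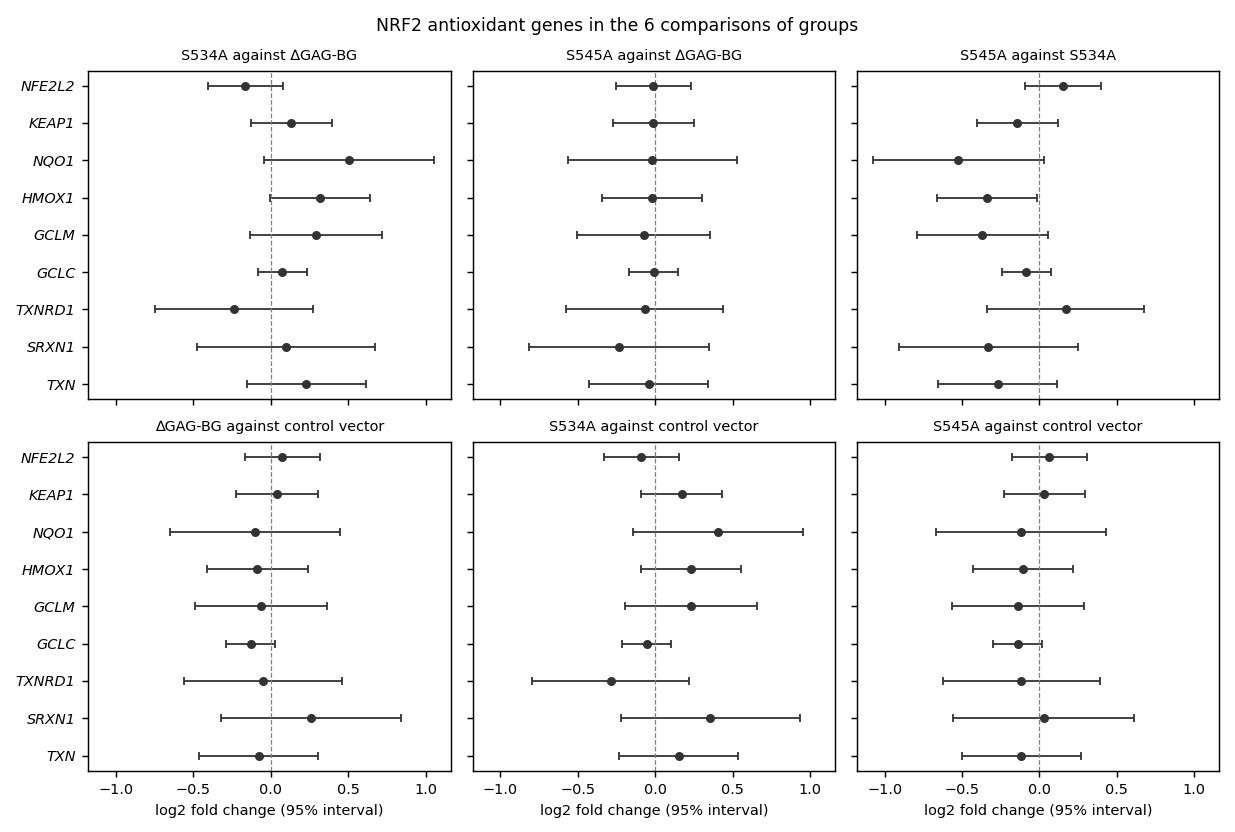
Log2 fold change (horizontal axis, edgeR) of the 9 genes in each of the 6 comparisons, with points at the estimate and bars for the 95% interval. The interval of HMOX1 between S545A and S534A (-0.66 to -0.02) lies just below 0, and all others cross it.

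S534A replicate 2 was described beside the other 11 libraries after its values were seen, with no test. It lay outside the range of the others for 7 of the 9 members, while 51.5% of all genes did the same. NQO1, HMOX1, GCLM, TXN and KEAP1 were higher than in any other library, and NFE2L2 and TXNRD1 were lower than in any other. At least 2-fold higher than the mean of the others was 1 of 9 members (NQO1, against 3.01% of all genes), and at least 2-fold lower was 1 of 9 (TXNRD1, against 4.85%). GCLC and SRXN1 lay inside the range, so the glutathione ligase genes did not move together here, GCLM being at 23.5 CPM against 12.5 to 20.7 CPM elsewhere and GCLC at 38.3 CPM against 34.7 to 40.9 CPM.

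Among 30 other NRF2 target genes tested, of 36 listed, S534A replicate 2 was at least 2-fold higher for 5 (3.01% of all genes) and at least 2-fold lower for 2 (4.85%). The ferritin genes FTL and FTH1, which encode the iron storage protein, were 3.08-fold and 3.09-fold higher. AKR1C1, an aldo-keto reductase, was 2.65-fold higher and PIR 2.38-fold. The drug exporter ABCC3 was at 33.7 CPM against 1.90 to 5.62 CPM. SLC7A11, the cystine importer that feeds glutathione synthesis, was at 0.115 times the others, with 18.5 CPM against 64.4 to 284 CPM. The glycine transporter gene SLC6A9 was at 0.116 times the others. Outside the classic targets, SOD2, the mitochondrial superoxide dismutase, was 4.41-fold higher. FTL and FTH1 have many processed copies in the genome, but the rows named for those copies held 620 counts against 465786 for FTL and 1222 against 53120 for FTH1. In the same library 10 of 12 genes of the endoplasmic reticulum and amino acid stress responses were at least 2-fold lower, HSPA5, the chaperone BiP, being at 287 CPM against 1228 to 11864 CPM. The part of these other differences in the values of NQO1 and TXNRD1 was not tested.

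**Figure D3:**
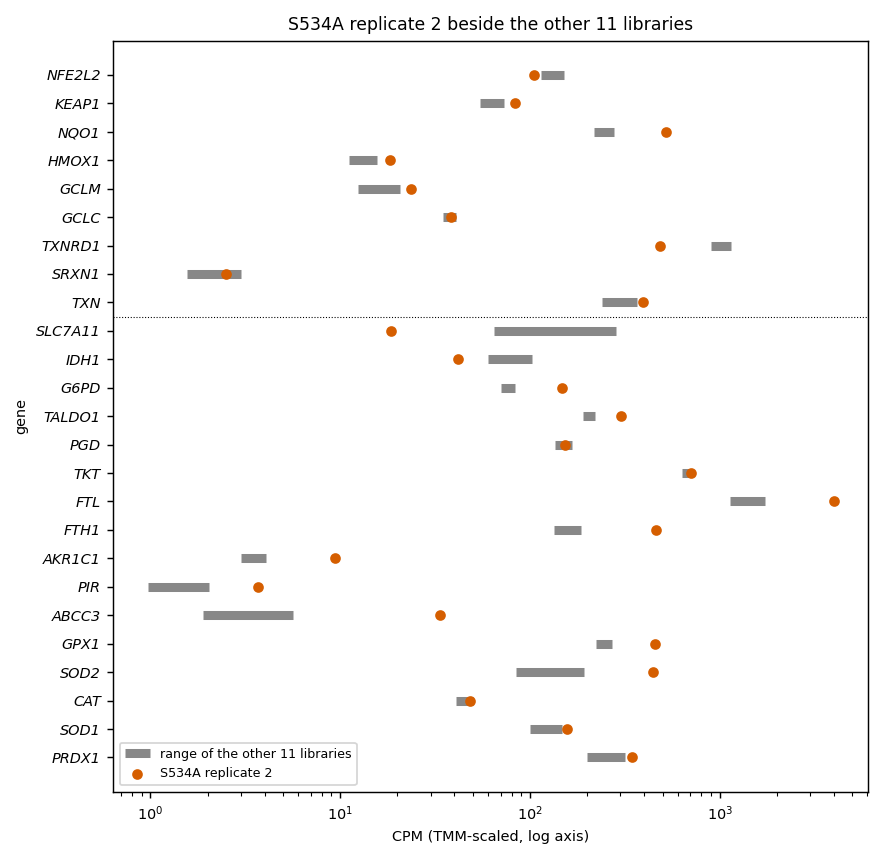
TMM-scaled CPM (horizontal log axis) of the 9 genes, above the dotted line, and of other antioxidant and NRF2 target genes below it, with a grey bar for the range of the other 11 libraries and a point for S534A replicate 2. FTL, FTH1, SOD2 and NQO1 lie to the right of their bars, and SLC7A11, IDH1 and TXNRD1 to the left.

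∆GAG-BG replicate 1 was the other library at an extreme, with HSPA5 at 11864 CPM and 9 of the 12 stress genes at least 2-fold above the mean of the other 11 libraries. It lay outside the range of the others for 3 of the 9 members (32.2% of all genes), namely NFE2L2 at 151 CPM, KEAP1 at 54.3 CPM and GCLM at 12.5 CPM. No member was at least 2-fold higher or lower than the mean of the others (1.45% and 1.62% of all genes). In the same library SLC7A11, a gene that the amino acid stress response also drives, was 2.26-fold higher, at 284 CPM against 18.5 to 200 CPM. SLC6A9 was 3.24-fold higher, at 6.62 CPM against 0.234 to 3.92 CPM. The lowest of the other libraries was S534A replicate 2 for both genes. How far the stress genes enter into the NFE2L2 value was not tested. Within control vector and within S545A, replicate 1 was above both other replicates for NQO1, HMOX1, GCLM, SRXN1 and TXN. In S545A the ratio of replicate 1 to the mean of replicates 2 and 3 was 1.43 for TXN, 1.40 for GCLM, 1.36 for HMOX1 and 1.86 for SRXN1. In ∆GAG-BG, replicate 1 was above both others for HMOX1 and SRXN1 and below both for NQO1, GCLM and TXN.

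**Figure D4:**
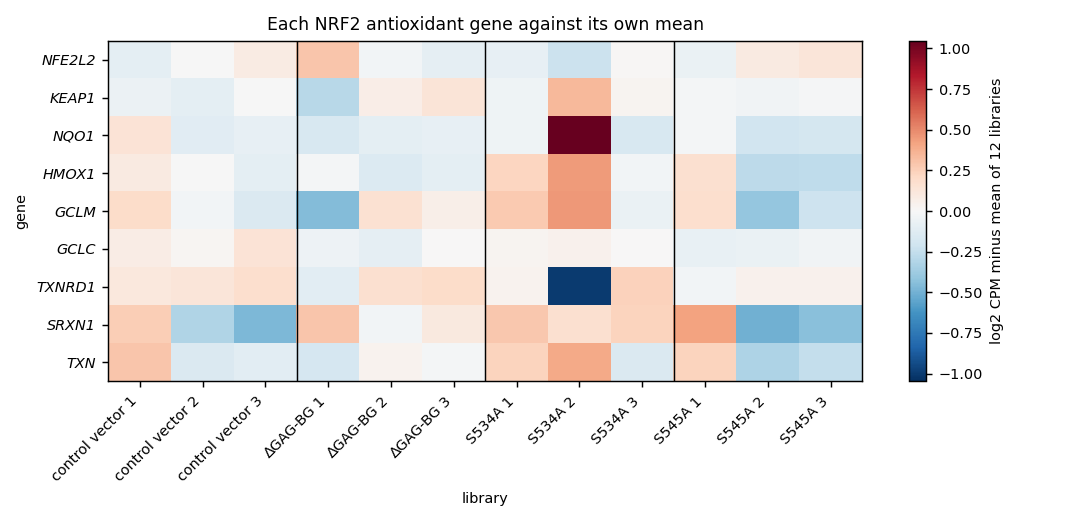
Difference of log2 CPM from the gene's mean over the 12 libraries (color scale) for the 9 genes (rows) in each library (columns, lines between groups). The strongest cells are NQO1 and TXNRD1 in S534A replicate 2, and replicate 1 of S545A is above replicates 2 and 3 for HMOX1, GCLM, SRXN1 and TXN.

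The wider pathway was read from lists of genes. Of 13 partners and regulators of NRF2, such as the small MAF proteins, BACH1, CUL3 and SQSTM1, 0 passed edgeR's test at an adjusted p of 0.05 in any comparison and 1 an unadjusted p of 0.05. It was DPP3, which binds KEAP1, with a log2 fold change of 0.35 (SE 0.15) in S534A against ∆GAG-BG (2.99% of all genes). Without S534A replicate 2 the change of DPP3 was 0.11. Of the 30 other target genes, 0 passed the adjusted test. The number under an unadjusted p of 0.05 was 0 for S545A against ∆GAG-BG (1.1% of all genes), 1 for S534A against ∆GAG-BG (2.99%) and 2 for S545A against S534A (4.78%). Against control vector it was 3 for S534A (3.45%), 1 for ∆GAG-BG (0.871%) and 1 for S545A (1.05%). ABCC3 had log2 fold changes of 1.90 (SE 0.83) against ∆GAG-BG and 2.18 (SE 0.84) against control vector in S534A, and -2.03 (SE 0.83) in S545A against S534A, and without S534A replicate 2 the first of these was -0.43. AKR1C1 had -0.76 (SE 0.34) in S545A against S534A, which was -0.04 without that replicate. FTH1 had 0.82 (SE 0.37) in S534A against control vector, which was 0.00 without it. ABCC2, another exporter, had -0.87 (SE 0.32) in S534A against control vector, with 13 to 43 counts per library. The transporter gene ABCB6 had -1.05 (SE 0.39) in ∆GAG-BG and -1.03 (SE 0.38) in S545A against control vector. It was near the floor, with 4 to 20 counts per library. Without S534A replicate 2, 0 of the 30 were under an unadjusted p of 0.05 in the 3 comparisons that use S534A. The share of all genes was then 1.89% against ∆GAG-BG, 1.74% for S545A against S534A and 1.26% against control vector. Among 23 antioxidant enzymes outside the classic targets, 0 passed the adjusted test and SOD2 alone an unadjusted p of 0.05. Its log2 fold change was 1.20 (SE 0.54) in S534A against control vector (3.45% of all genes), and 0.02 without S534A replicate 2. Without replicate 1, ∆GAG-BG is replicates 2 and 3 alone, which were close to each other and whose TGFBR3 went against their label. In that fit S545A against ∆GAG-BG had 5.54% of all genes under an unadjusted p of 0.05. Below it were 2 of the 13 regulators (MAFG and SQSTM1) and 2 of the 30 targets (ABCC2 and TRIM16), all higher. The 4 of the 23 enzymes below it (GPX4, PRDX3, GLRX and MSRB1) were 2 higher and 2 lower. S534A against ∆GAG-BG had 1 regulator, 2 targets and 1 enzyme below it (3.99%). For ∆GAG-BG against control vector it was 1 regulator, 2 targets and 2 enzymes (2.43%). The median log2 fold change of the 30 target genes was between -0.10 and 0.01 in the 6 comparisons. Of the 12 stress genes, 4 were under an unadjusted p of 0.05 in S534A against ∆GAG-BG (2.99% of all genes), all lower. Among them were DDIT3 at -2.97 (SE 1.21), HERPUD1 at -2.20 (SE 0.97) and HSPA5 at -2.03 (SE 0.91). Without S534A replicate 2 (1.89%) or without ∆GAG-BG replicate 1 (3.99%), 0 of the 12 were under it.

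NQO1 and TXNRD1 had the widest ranges of the 9 members, 1.25 on the log2 scale for each over the 12 libraries, against a median of 0.71 over all genes tested. The genes most like NQO1 by Pearson correlation of log2 CPM over the 12 libraries were PFKL and TALDO1 (both 0.98), ENO2, SEPW1 and COL4A1 (all 0.97). Without S534A replicate 2 these were 0.74 for PFKL, 0.87 for TALDO1, 0.56 for ENO2, 0.75 for SEPW1 and 0.67 for COL4A1. TALDO1, which encodes a pentose phosphate enzyme, is itself a listed NRF2 target and was at 300.2 CPM in S534A replicate 2 against 191 to 221 CPM elsewhere. The genes most like TXNRD1 were PIK3CB, PANK3, VPS54 and MPHOSPH9 (all 0.99) and FRMD5 (0.98). Without that library they were 0.91 for PIK3CB, 0.89 for PANK3, 0.86 for VPS54, 0.90 for MPHOSPH9 and 0.88 for FRMD5. These correlations describe 12 libraries that share groups and near-identical pairs, and are given with no test.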

How the data were processed

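RNA-seq of 12 HEYA8 libraries was used, total RNA made into strand-specific libraries (NEBNext Ultra II Directional) and sequenced as paired ends. The authors deposited raw counts per gene in 1 table, which featureCounts made. The submitters' processing notes also list FastQC, Trim Galore 0.4.5, STAR 2.4, SAMtools 1.2 and the mouse builds mm10 and GRCm38, but the table holds human symbols. GENCODE release 29 holds 36113 of its 56269 symbols, 33647 of them at identical coordinates and all 9 members among these, so positions are on GRCh38. The strand setting and the annotation release of the counting are not given in the sources used here.

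The counts were filtered with filterByExpr (minimum count 10) and tested with edgeR 4.0.16 (TMM, robust quasi-likelihood) under R 4.3.3, in 1 model of 4 groups (8 degrees of freedom left). p-values were adjusted by Benjamini-Hochberg over the 16069 genes tested. An exact permutation test (two-sided, on log2 CPM) was run for each member. Intervals are at 95%. The tests were tested on simulated data. The members, the lists and the tests were chosen with earlier results of these data known. All members are named, and of each other list at most 3 genes per comparison with the smallest unadjusted p under 0.05, plus TGFBR3, HSPA5 and the 5 genes most correlated with each of the 2 members of widest range. Genes named for S534A replicate 2 and ∆GAG-BG replicate 1 were chosen after their values were seen.

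Alternatives were no filter on low counts, RLE factors or library size in place of TMM, DESeq2 1.42.0, limma-voom and limma-trend on log2(CPM + 1) (limma 3.58.1), a fit of only the 2 groups compared, a replicate block, and each replicate left out. A fit that sums replicates 2 and 3 in the 3 groups where they were close, and a fit without replicates 2 and 3 of control vector and ∆GAG-BG, whose TGFBR3 went against their labels, were added after seeing the data. No label ties a replicate number to a batch or day. The deviations of same-numbered libraries from their group means correlated at 0.29 to 0.60 between S545A and control vector, and only there were the numbers taken as pairs.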

Additional observations from a re-analysis of the deposited data

How the results depend on the processing

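The counts of genes under an adjusted p of 0.05, 0 in all 6 comparisons, moved to 5 by DESeq2 and 1 each by limma-voom, limma-trend and no filter for S534A against ∆GAG-BG, to 1 by each of these 4 for S545A against S534A, and to 2 by DESeq2 and 1 by the other 3 for S534A against control vector. Without libraries 2 and 3 of control vector and ∆GAG-BG it was 1 in each comparison with control vector. No member was among those called by DESeq2, limma-voom or limma-trend. The count of members under an unadjusted p of 0.05 in S534A against ∆GAG-BG, 0 in the report, was 1 by DESeq2, library size only, no filter, limma-voom and the replicate block (2.73% to 3.32% of all genes), 3 without libraries 2 and 3 of control vector and ∆GAG-BG (11.6%), and 0 to 2 when 1 replicate was left out, with 2 without S534A replicate 3 (11%). In S545A against S534A, 1 in the report, it was 2 by DESeq2 and no filter (4.63% and 3.8%), 0 with only the 2 groups compared, with libraries 2 and 3 summed and without libraries 2 and 3 of control vector and ∆GAG-BG, and 0 to 4 when 1 replicate was left out, with 4 without S534A replicate 3 (16%) or S545A replicate 1 (12.1%). Leaving out 1 replicate gave 0 to 1 in S545A against ∆GAG-BG (1 without S545A replicate 1, 1.92%), 0 to 3 in S534A against control vector (3 without S534A replicate 3, 11.9%) and 0 to 2 in the test over 4 groups (2 without S534A replicate 3, 4.74%). Leaving out 1 replicate moved the log2 fold change of TXNRD1 from -0.47 to 0.06 in S534A against ∆GAG-BG, from -0.12 to 0.41 in S545A against S534A and from -0.53 to 0.00284 in S534A against control vector, and that of NQO1 from -0.09 to 0.62 in S534A against control vector, in each case with the change of sign without S534A replicate 2, where TXNRD1 was at 0.0576, -0.120 and 0.00284 and NQO1 at -0.0929. SRXN1 changed sign in S534A against ∆GAG-BG, to -0.0632, without libraries 2 and 3 of control vector and ∆GAG-BG. Further members changed sign over all the alternatives. In ∆GAG-BG against control vector, NFE2L2 ran from -0.06 to 0.40 and KEAP1 from -0.22 to 0.15. GCLM ran from -0.65 to 0.10 there, TXNRD1 from -0.22 to 0.03 and TXN from -0.47 to 0.08. SRXN1 and TXN changed sign in S534A and in S545A against control vector, as did NFE2L2 in S534A. All members but SRXN1 did so in S545A against ∆GAG-BG. The cause was not tested. For S545A against control vector the numbers were taken as pairs only because same-numbered libraries correlated in these data. There the replicate block changed no call of a member and left 0 members under an unadjusted p of 0.05. In the other comparisons the correlations of same-numbered libraries ran from -0.23 to 0.39 and the numbers were not taken as pairs. With 32 to 77 counts per library, SRXN1 is the member that depth limits most.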
